A study of Mus musculus with 6 samples.

Results

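Genes of cartilage other than collagens were read in ear skin of mice at postnatal day 21, as a measure of how much cartilage each ear piece contributed to its RNA library. The 9 genes were Sox9, Acan, Comp, Matn1, Matn3, Chad, Hapln1, Snorc and Ucma, taken by symbol from a read-count table of 18422 genes, and all 9 were in the table. Of these, 8 were counted deeply enough to be tested, and Matn1 was not. The study deleted Vegfr2 (official symbol Kdr), the main VEGF-A receptor gene of endothelial cells, in endothelium. The 3 ecko libraries came from the ear skin of endothelial knockout mice (genotype ecko, titled Vegfr2ecko) and the 3 control libraries from littermates, and the mice of both groups had received tamoxifen, the drug that switches on the deletion. The sources used here do not give the Cre driver, the deleted exon or the tamoxifen schedule of these mice, and how long before day 21 the gene was lost is unknown. Sequencing of poly(A) RNA gave between 17255416 and 18054696 estimated read counts per library. The labels give no animal numbers, so the p-values speak only of variation among these 6 libraries.

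The mouse ear holds a thin plate of elastic cartilage between its skin layers. Its cells, the chondrocytes, are directed by the transcription factor SOX9 and lay down fibrils of collagen II with collagens IX and XI. Between the fibrils lies aggrecan, a large proteoglycan that holds water and is bound to hyaluronan through link protein. Smaller proteins such as COMP, chondroadherin and the matrilins tie the fibrils, the proteoglycan and the cell surface together. In bulk tissue, fewer cells of a type and less RNA per cell cannot be told apart.

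The labels and the tissue were checked first. Kdr had 58, 37 and 42 counts in ecko libraries 1 to 3, against 475, 511 and 595 counts in control libraries 1 to 3. Reads of Y-linked genes were abundant in the first and second library of each group and nearly absent in the third (36 reads in ecko 3 and 24 in control 3). In both groups the first and second library were therefore taken as male and the third as female. Chondrocyte collagens were read in every piece. Col2a1, the gene of collagen II and the defining chondrocyte collagen, had 303, 301 and 284 CPM (read counts scaled to the library totals) in ecko libraries 1 to 3, against 300, 438 and 287 CPM in control libraries 1 to 3. Of the 7 bone markers, Ibsp, Bglap, Bglap2, Sp7 and Dmp1 were too weakly counted to be tested. The 2 that were tested, Alpl and Phex, did not pass the test between genotypes. Alpl had 73, 69 and 73 counts in ecko libraries 1 to 3, against 64, 68 and 78 counts in control libraries 1 to 3. Phex had 8, 17 and 15 counts in ecko libraries 1 to 3, against 14, 17 and 23 counts in control libraries 1 to 3. Tendon markers summed to between 895 and 960 CPM in ecko and between 768 and 953 CPM in control libraries, and hair follicle markers to between 1388 and 1510 CPM in ecko and between 1275 and 1642 CPM in control libraries. Most of the hair follicle sum came from Krt15, at between 1115 and 1503 CPM over all libraries. The sum therefore says little about the other hair follicle markers, which did not all follow Krt15 across the libraries. Tendon and hair follicle matter here because Comp and Chad are also expressed in tendon and Sox9 in the hair follicle.

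The summed level of the 9 genes varied more between control ear pieces than between ecko ear pieces. Controls also varied more over genes in general. There the variance between libraries was 10.8 to 14.8 times that of sampling among controls and 4.89 to 8.28 times among ecko libraries. The sums of chondrocyte regulators, keratinocyte markers and fat cell markers went the other way and varied more among ecko libraries. The 9 genes together had 853, 830 and 821 CPM in ecko libraries 1 to 3, against 918, 1174 and 824 CPM in control libraries 1 to 3. The ecko libraries lay close together, with a coefficient of variation of 1.99%, while that of the controls was 18.6%, and the groups overlapped because control 3 fell among the ecko values. The summed level averaged 835 ± 16.6 CPM in ecko and 972 ± 181 CPM in control libraries (SD, n = 3 each), so the difference in means was smaller than the spread of the controls. Control 2 stood apart. It was the highest of the 6 libraries for 7 of the 8 tested genes, the exception being Snorc, and its summed level was 1.35 times the mean of the other controls. The ecko mean minus the control mean was -137 CPM over all libraries and -36.4 CPM without control 2.

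The cartilage collagens, which were counted apart from the 9 genes, gave the same order of control libraries. Their 8 genes summed to 1372, 1315 and 1348 CPM in ecko libraries 1 to 3, against 1588, 1934 and 1423 CPM in control libraries 1 to 3, and these groups did not overlap. Control 2 was the highest library for 7 of the 8 collagens, with Col10a1 highest in control 1. Other tissues did not all follow. The fat cell marker sum was also highest in control 2, at 449 CPM against 390 and 368 CPM in controls 1 and 3. So was the elastic fibre sum, at 8675 CPM against 7690 and 6758 CPM in controls 1 and 3. Among the controls the tendon marker sum was highest in control 2, at 953 CPM against 768 and 858 CPM, though ecko 2 had 960 CPM. The skeletal muscle marker sum was highest in control 1, at 8492 CPM against 6144 CPM in control 2. The keratinocyte marker sum was at its lowest in control 2, at 22940 CPM. The part of these tissues in the spread of the cartilage genes was not tested.

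**Figure D1:**
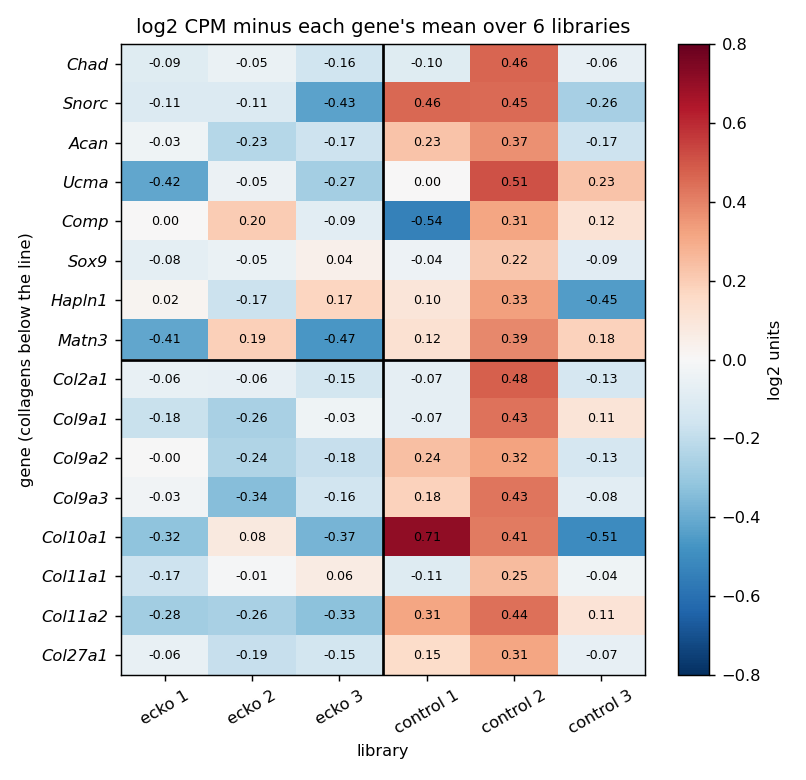
Level of each cartilage gene (rows, the 8 tested genes above the line and 8 cartilage collagens below it) in each library (columns), as log2 CPM minus the mean of that gene over the 6 libraries. Control 2 is above the mean for all 16 genes, while ecko libraries 1 to 3 and control 3 are mostly below it.

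No cartilage gene among the 9 passed the test between genotypes. By the edgeR quasi-likelihood test with Benjamini-Hochberg adjustment over all 14866 genes tested, 0 of the 8 rose and 0 fell, where 0.686% of all genes rose, 1.08% fell and 1.76% did either. DESeq2 also called 0. At an unadjusted edgeR p under 0.05 stood 3 of the 8, Acan, Snorc and Ucma, beside 15.4% of all genes tested. The log2 fold changes (ecko over control) lay below 0 for 7 of the 8 genes, with a median of -0.26, while the median of all genes tested was -0.0018. Without control 2 the median was -0.10 and 5 of the 8 were below 0.

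**Figure D2:**
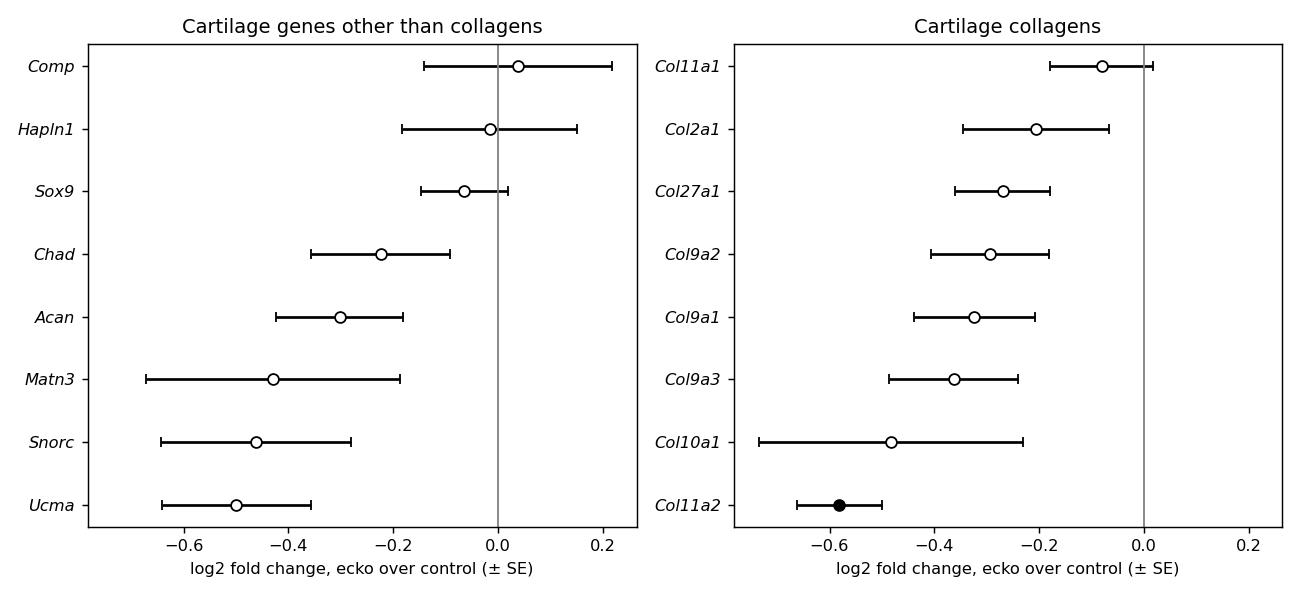
Log2 fold change of ecko over control (horizontal axis, bars are standard errors of the edgeR fit, n = 3 each) for the 8 tested cartilage genes and for 8 cartilage collagens. Filled points passed at an adjusted p under 0.05, which only Col11a2 did, and the values run between -0.58 for Col11a2 and 0.04 for Comp.

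Sox9, the gene of the master transcription factor of chondrocytes, is also expressed in the outer root sheath of the hair follicle. It lies on chromosome 11 from 112782210 to 112787757 (GRCm38.p6). It had 71.2, 72.5 and 77.1 CPM in ecko libraries 1 to 3, against 73.1, 87.2 and 70.6 CPM in control libraries 1 to 3. Only control 2 stood above the rest, and the groups overlapped. Its log2 fold change was -0.06 (SE 0.08, edgeR adjusted p = 0.785), and it turned to 0.03 without control 2. The reads cannot be divided between cartilage and hair follicle, whose markers had a median log2 fold change of 0.03.

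Acan encodes aggrecan, the main proteoglycan of cartilage (chromosome 7 from 79053226 to 79115099). It had 297, 259 and 271 CPM in ecko libraries 1 to 3, against 357, 392 and 271 CPM in control libraries 1 to 3. Controls 1 and 2 were higher than every ecko library, and control 3 was level with ecko 3, so the groups overlapped. The log2 fold change was -0.30 (SE 0.12, edgeR adjusted p = 0.276). Without control 3 it was -0.44, with an edgeR adjusted p of 0.0224, and without control 2 it was -0.19, with an adjusted p of 0.547.

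Hapln1 encodes link protein, which locks aggrecan onto hyaluronan (chromosome 13 from 89540529 to 89611832). It had 69.7, 60.8 and 77.3 CPM in ecko libraries 1 to 3, against 73.5, 86.3 and 50.4 CPM in control libraries 1 to 3. The highest and the lowest of the 6 values were both controls, and its log2 fold change was -0.02 (SE 0.17, edgeR adjusted p = 0.980). The ratio of Hapln1 to Acan CPM was 0.235, 0.234 and 0.285 in ecko libraries 1 to 3, against 0.206, 0.220 and 0.186 in control libraries 1 to 3. It averaged 0.252 ± 0.0294 in ecko and 0.204 ± 0.0169 in control libraries (SD, n = 3 each), and the groups did not overlap. A two-sided exact permutation test gave p = 0.1, the smallest that 3 against 3 libraries allow, and 0.45 when adjusted over the 9 ratios that were computed, so no ratio could have passed a threshold of 0.05 in this design.

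Chad encodes chondroadherin, a leucine-rich repeat protein that binds collagen II and integrins of chondrocytes (chromosome 11 from 94565047 to 94569127). Per length of transcript it was the most abundant of the 9 genes. The 250 bases before its annotated start (RefSeq, GRCm38.p6, plus strand, chr11:94564797-94565046) are shown for that reason, with the letters TATAAA in capitals, which begin 28 bases before the start and are present in 7.59% of all such windows on the sense strand.
Chad: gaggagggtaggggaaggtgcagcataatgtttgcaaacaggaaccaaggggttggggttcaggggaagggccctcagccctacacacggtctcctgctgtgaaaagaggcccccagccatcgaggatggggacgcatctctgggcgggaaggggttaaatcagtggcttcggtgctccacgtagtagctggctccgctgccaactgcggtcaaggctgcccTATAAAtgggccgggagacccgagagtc
Chad had 339, 349 and 324 CPM in ecko libraries 1 to 3, against 338, 499 and 346 CPM in control libraries 1 to 3. Control 2 alone was high, and the other 5 libraries lay within a narrow range. The log2 fold change was -0.22 (SE 0.13, edgeR adjusted p = 0.470), and it shrank to -0.02 without control 2.

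Comp encodes cartilage oligomeric matrix protein, a member of the thrombospondin family that is also made in tendon (chromosome 8 from 70373548 to 70382066). It had 44.1, 50.7 and 41.5 CPM in ecko libraries 1 to 3, against 30.3, 54.8 and 47.7 CPM in control libraries 1 to 3. Its lowest value was in control 1, where Acan was high, so this gene did not follow Acan across the controls. The log2 fold change was 0.04 (SE 0.18, edgeR adjusted p = 0.952), the 1 value of the set above 0, and it was -0.17 without control 1. The tendon marker sum was likewise lowest in control 1, at 768 CPM against 953 and 858 CPM in controls 2 and 3. Of the 6 markers only Thbs4 and Fmod were lowest there, while Tnmd, Mkx and Kera were lowest in ecko 1 and Scx in ecko 3. The median log2 fold change of the 6 tendon markers was 0.01. Whether the Comp reads came from tendon or cartilage was not tested.

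The matrilins form filaments that connect collagen fibrils with other matrix proteins, and the set holds Matn1 and Matn3. Matn1, on chromosome 4 from 130944385 to 130955476, was close to absent. It had 0 counts in each of the ecko libraries, against 1, 0 and 0 counts in control libraries 1 to 3. A count of 0 allows up to 3 counts, or between 0.166 and 0.174 CPM in the ecko libraries, which covers counting error only. Matn3, on chromosome 12 from 8947929 to 8972028, was weakly expressed, with 22, 35 and 22 counts in ecko libraries 1 to 3, against 32, 39 and 34 counts in control libraries 1 to 3. That was 1.27, 1.94 and 1.23 CPM in ecko, against 1.85, 2.22 and 1.93 CPM in control libraries. Ecko 1 and ecko 3 were below every control, and ecko 2 lay within the control range. The log2 fold change of Matn3 was -0.43 (SE 0.24, edgeR adjusted p = 0.444). The 250 bases before each annotated start (RefSeq, GRCm38.p6, plus strand) are set side by side because the pair are family members of which 1 was deep enough to be tested and 1 had a single read, Matn1 at chr4:130944135-130944384 and Matn3 at chr12:8947679-8947928.
Matn1: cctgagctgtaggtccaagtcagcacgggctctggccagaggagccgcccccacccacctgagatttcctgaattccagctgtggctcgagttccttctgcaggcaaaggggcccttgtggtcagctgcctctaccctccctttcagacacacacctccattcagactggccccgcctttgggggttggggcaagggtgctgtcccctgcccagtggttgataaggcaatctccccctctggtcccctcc
Matn3: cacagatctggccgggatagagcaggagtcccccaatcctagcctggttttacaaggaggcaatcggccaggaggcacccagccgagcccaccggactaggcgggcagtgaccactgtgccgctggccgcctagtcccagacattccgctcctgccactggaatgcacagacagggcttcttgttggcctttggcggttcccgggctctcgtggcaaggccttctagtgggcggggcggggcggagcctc
Neither window holds TATAAA on the sense strand, and neither holds ACAAAG or ACAATG, the core letters that SOX proteins bind, on either strand. Promoter windows could be matched for 6 of the 9 genes (Acan, Matn1, Matn3, Chad, Hapln1 and Ucma), and 0 of the 6 hold these SOX letters, which 25.2% of all such windows hold in at least 1 of these forms. This says only that the letters are not in these windows. The Hapln1 window, chr13:89540386-89540635, ends past the start given for that gene, 89540529, so part of it lies inside the gene.

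Snorc encodes a small transmembrane proteoglycan of chondrocytes (chromosome 1 from 87470201 to 87475482). It had 18.8, 18.8 and 15.0 CPM in ecko libraries 1 to 3, against 27.8, 27.8 and 16.9 CPM in control libraries 1 to 3. Controls 1 and 2 were nearly equal and far above the ecko libraries, while control 3 lay among them. The log2 fold change was -0.46 (SE 0.18, edgeR adjusted p = 0.264). Control 3 was also the female control. In the male libraries alone the value was -0.56, with an edgeR adjusted p of 0.0383, and without control 3 it was -0.66, with an adjusted p of 0.0200.

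Ucma encodes a small secreted cartilage protein rich in gamma-carboxylated glutamate (chromosome 2 from 4976122 to 4985748), and it was the 1 gene of the 8 whose groups did not overlap. It had 12.8, 16.5 and 14.1 CPM in ecko libraries 1 to 3, against 17.1, 24.3 and 20.1 CPM in control libraries 1 to 3. The highest ecko library and the lowest control were close together, at 16.5 CPM in ecko 2 and 17.1 CPM in control 1. Groups without overlap were found for 21% of all genes tested, so 1 of 8 is not above the background. The mean was 14.5 ± 1.90 CPM in ecko and 20.5 ± 3.60 CPM in control libraries (SD, n = 3 each), a log2 fold change of -0.50 (SE 0.14, edgeR adjusted p = 0.138).

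**Figure D3:**
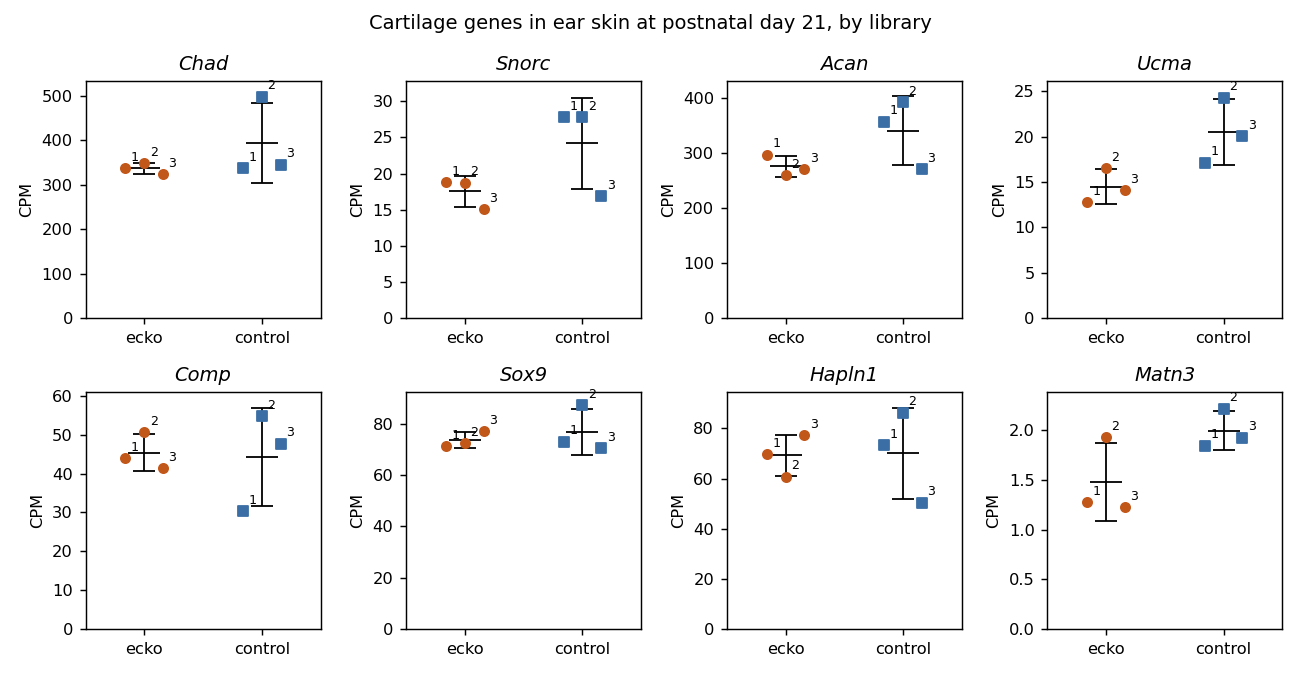
CPM of the 8 tested cartilage genes in each library, with ecko (circles) on the left and control (squares) on the right of each panel. Numbers give the library and bars the mean ± SD (n = 3 each), and each axis starts at 0. Only the Ucma panel has no overlap between groups.

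Levels could be ordered between genes after division by transcript length (CPM per kilobase of the longest protein-coding transcript in GENCODE M21). Chad was the highest, at a mean of 201 ± 7.41 CPM per kilobase in ecko and 235 ± 54.0 in control libraries (SD, n = 3 each). Snorc followed with 36.7 ± 4.54 in ecko and 50.6 ± 13.2 in control libraries, and Acan with 37.5 ± 2.62 in ecko and 46.2 ± 8.51 in control libraries. These neighbours did not differ beyond their spread. Below them came Ucma (17.1 ± 2.24 in ecko and 24.2 ± 4.25 in control libraries), Comp (18.8 ± 1.96 and 18.3 ± 5.22), Sox9 (17.8 ± 0.750 and 18.6 ± 2.16) and Hapln1 (12.1 ± 1.44 and 12.3 ± 3.18), each CPM per kilobase. Ucma, Comp and Sox9 lay within each other's spread, and Hapln1 was below Sox9 by more than theirs. Matn3 was far lower, between 0.408 and 0.736 CPM per kilobase over the 6 libraries. The poly(A) libraries were fragmented before copying, and lengths rest on 1 transcript per gene, so the order between close genes depends on the isoform chosen.

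The make-up of the set varied little for its main genes. Chad took between 36.8% and 42.5% of the summed CPM of the 9 genes in each library and Acan between 31.3% and 38.8%, so these genes largely set the sum. The share of Comp ranged between 3.30% in control 1 and 6.11% in ecko 2, and that of Snorc between 1.83% in ecko 3 and 3.03% in control 1. Relative to the summed cartilage collagens, the 9 genes stood at 0.622, 0.631 and 0.609 in ecko libraries 1 to 3, against 0.578, 0.607 and 0.579 in control libraries 1 to 3. The groups did not overlap, although ecko 3 and control 2 nearly met, and the two-sided exact permutation p was 0.1 (0.45 adjusted over the 9 ratios). The ratio of Acan to Col2a1 was 0.980, 0.861 and 0.952 in ecko libraries 1 to 3, against 1.19, 0.896 and 0.942 in control libraries 1 to 3, with control 1 apart from the rest.

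Other cartilage genes were read from lists of known function. All 8 cartilage collagens had values below 0, with a median log2 fold change of -0.31, and 1 fell. That gene was Col11a2, which encodes a chain of collagen XI, at 153, 155 and 148 CPM in ecko libraries 1 to 3, against 231, 252 and 201 CPM in control libraries 1 to 3 (log2 fold change -0.58, SE 0.08, edgeR adjusted p = 0.00930). Its groups were well apart, unlike those of Col2a1 (-0.21, SE 0.14). Col27a1, the collagen with the next smallest p, had -0.27 (SE 0.09, edgeR adjusted p = 0.195). The Col11a2 call ended without ecko 1 or without ecko 2 (highest edgeR adjusted p = 0.0588). Without control 3, 5 of the 8 collagens fell. Without control 2 the median was -0.19, with 6 of the 8 below 0.

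Of 12 tested genes of other cartilage matrix proteins 0 passed by the edgeR test, with 5 at an unadjusted p under 0.05, while DESeq2 called 2 lower. The edgeR test called 2 lower with a sex term and 4 lower without control 3. Their median was -0.19, with 10 of the 12 below 0, and without control 2 it was -0.09, with 7 of the 12 below 0. Clec3a, which encodes a cartilage C-type lectin, had 40.7, 51.3 and 45.5 CPM in ecko libraries 1 to 3, against 67.0, 87.4 and 55.5 CPM in control libraries 1 to 3 (log2 fold change -0.61, SE 0.15, edgeR adjusted p = 0.0892). Epyc, the gene of the small proteoglycan epiphycan, had a low level of 1.10, 1.55 and 1.62 CPM in ecko, against 2.83, 4.10 and 2.10 CPM in control libraries (log2 fold change -1.07, SE 0.28, edgeR adjusted p = 0.114). In both genes the groups did not overlap, with control 3 and the highest ecko library close together.

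Among 9 tested chondrocyte regulators 0 passed, 0 had an unadjusted p under 0.05 and DESeq2 called 0, although 1 was called lower without control 1. Their median was -0.06, and 0.01 without control 3. Runx3 had 0.26 (SE 0.13, edgeR adjusted p = 0.367) and Trps1 0.15 (SE 0.07, edgeR adjusted p = 0.378). These transcription factor genes are also expressed outside cartilage, in immune cells and hair follicles. Glycosaminoglycans include hyaluronan and the sulfated sugar chains that aggrecan carries. Of 14 genes for their synthesis, 1 fell, and the median was -0.01. It was Papss2, whose product makes the sulfate donor, at 41.3, 36.5 and 39.9 CPM in ecko libraries 1 to 3, against 46.4, 50.8 and 52.7 CPM in control libraries 1 to 3 (log2 fold change -0.35, SE 0.07, adjusted p = 0.0494 by edgeR). Its groups did not overlap, but the call held in only 4 of 12 alternative settings. Chpf, which encodes a chondroitin polymerizing factor, had -0.39 (SE 0.11, edgeR adjusted p = 0.142).

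Of 4 tested genes of aggrecan turnover 0 passed by either tool, with 1 at an unadjusted edgeR p under 0.05, the aggrecanase gene Adamts5 (log2 fold change 0.30, SE 0.10, adjusted p = 0.181 by edgeR). The median of these 4 was 0.18, with 0.08 without control 1 and 0.10 without ecko 2. The elastic fibre genes, which serve elastic cartilage as well as dermis and vessels, had a median of 0.02 over 7 genes (-0.11 without control 1), with 0 passing by either tool and 1 at an unadjusted p under 0.05. That was Eln, the elastin gene, at 5130, 4414 and 4468 CPM in ecko libraries 1 to 3, against 5999, 6593 and 4736 CPM in control libraries 1 to 3 (log2 fold change -0.31, SE 0.14, adjusted p = 0.318 by edgeR). Its order of control libraries, highest in control 2 and lowest in control 3, was that of Acan.

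Markers of other tissues were read beside the cartilage genes. The 6 endothelial markers summed to between 173 and 178 CPM in ecko and between 271 and 305 CPM in control libraries, and 5 of them fell, of which Cdh5, Pecam1 and Tie1 did so in all 12 alternative settings. The 6 fat cell markers summed to between 225 and 296 CPM in ecko and between 368 and 449 CPM in control libraries. Log2 fold changes were below 0 for 5 of the 6, of which 3 fell, and Cfd did so in all 12 settings. Lep went the other way, at 0.88 (SE 0.32, edgeR adjusted p = 0.231), and 1 of the 6 was called higher without control 2. Skeletal muscle markers had values below 0 in 6 of 6 genes, all at an unadjusted p under 0.05, and 0 passed by edgeR over all libraries or by DESeq2. The edgeR test called 1 of them lower with no low-count filter, with a sex term or without control 1, and 2 lower without control 3. Keratinocyte markers had values above 0 in 6 of 6 genes, of which Krt1 rose (0.76, SE 0.15, edgeR adjusted p = 0.0376), a call that held in 5 of 12 settings. Of the 6 fibroblast markers 0 passed by edgeR, with 0 at an unadjusted p under 0.05, and 0 by DESeq2. The part of these tissues in the cartilage values was not tested.

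The genes whose log2 CPM followed the mean centred profile of the 8 tested genes most closely over the 6 libraries, by Pearson correlation, were Mrpl49 (r = 0.993), Tmem198 (r = 0.989), Cdh24 (r = 0.988), Ext2 (r = 0.986), Dmtn (r = 0.981) and Plpp5 (r = 0.977). They were picked as the highest of 14858 genes, so the values are a description and carry no test. The profile itself stood at 0.38 in control 2 and between -0.17 and 0.03 in the other libraries. Each r therefore depends heavily on whether a gene was high in control 2. None of the 6 is in a list used here. The cartilage collagens had a median r of 0.800 and other cartilage matrix genes 0.796, beside 0.016 over all other genes tested. Chondrocyte regulators were at -0.159, tendon markers at 0.151, hair follicle markers at -0.525 and fat cell markers at 0.742. Endothelial markers were at 0.576, skeletal muscle markers at 0.427, fibroblast markers at 0.373 and keratinocyte markers at -0.540.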

How the data were processed

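RNA was isolated with Trizol from frozen ear skin, and poly(A) RNA was captured, fragmented and copied from random primers, per the labels' protocols. The deposited table holds the authors' expected counts (RSEM-type estimates of reads) for each gene, unscaled, and 10.45% of them were not whole. RSEM 1.3.1, HISAT2 2.2.1, Bowtie2 2.4.5 and GRCm38.p6 are listed, without roles, per the submitters' processing notes. Annotation and strand setting are not given in the sources used here. No exon of the 9 genes overlaps another gene in GENCODE M21.

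Counts were rounded, filtered with filterByExpr (minimum count 10) then scaled by TMM. The groups were compared by the edgeR 4.0.16 quasi-likelihood test (R 4.3.3) over 3 ecko and 3 control libraries with genotype as the only term, Benjamini-Hochberg adjustment over 14866 genes and a threshold of 0.05. The SE was the log2 fold change divided by the square root of F. CPM used the scaled totals. Libraries with at least 500 Y-linked reads were taken as male. No libraries were duplicates, as the variance between libraries of a group was 4.89 to 14.8 times that of sampling. The test was tried on simulated counts. Alternatives were RLE factors, no filter, DESeq2 1.42.0, a replicate block, a sex term, male libraries only and each library left out. Genes named were the 9, Kdr, Col2a1, some members of other lists that passed or had the smallest p, and the most alike genes. Emcn, Cldn5, Adipoq and Fabp4 also passed but are not described singly. Col2a1, Krt15, Lep, Thbs4, Tnmd, Mkx, Kera and the bone markers other than Phex were named outside that rule, after their values were seen. Gene identifiers of 18370 of 18422 genes matched RefSeq, the source of coordinates and promoters. The genes and lists were chosen with earlier results of these data known. Figures were drawn with matplotlib 3.10.9.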

Additional observations from a re-analysis of the deposited data

How the results depend on the processing

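The 8 tested cartilage genes kept their side of the threshold under RLE factors, no low-count filter, DESeq2 and a sex term, with 0 higher and 0 lower in each. The number that fell was 1 with the replicate block (Ucma, edgeR adjusted p = 0.0498, with 2 other cartilage matrix genes and 1 muscle marker) and 1 in the male libraries only (Snorc). With each library left out in turn it ran between 0 and 2, reached without control 3 (Acan and Snorc). The median log2 fold change of these genes ran between -0.38 and -0.10 with a library left out, and the ecko minus control difference in their summed CPM between -211 and -36.4, the values nearest 0 being those without control 2. Signs turned for genes near 0. Hapln1 had 0.0065 with the replicate block and 0.0046 with the sex term, and with a library left out it ran between -0.21 (without control 3) and 0.16 (without control 2). Comp ran between -0.17 (without control 1) and 0.22 (without control 2), and Sox9 between -0.12 (without control 3) and 0.034 (without control 2). The cause was not tested.

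Over all genes, 102 rose and 160 fell. DESeq2 called 195 higher and 231 lower, the replicate block 63 and 129, and the male libraries 83 and 91. With a library left out the counts ran between 22 (without ecko 2) and 165 (without control 3) higher, and between 34 and 242 lower, without the same libraries. Whether the replicate numbers pair the libraries was not settled. Same-numbered libraries deviated with correlations of 0.053, 0.0479 and 0.172, the last being the highest of all pairs. That last pair, ecko 3 and control 3, were also the libraries taken as female, so shared sex and pairing cannot be told apart there. Ecko 1 correlated best with control 2 (0.06). Ecko 2 and ecko 3 correlated best with their same-numbered controls, ecko 2 only narrowly (0.0476 with control 1). Depth limits Matn1 and Matn3, at 1 and 39 counts or fewer in any library.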
